A study of Mus musculus with 7 samples.

Results

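The pyruvate dehydrogenase complex was examined in quadriceps muscle of AR113Q mice, a knock-in model of spinal and bulbar muscular atrophy (SBMA), together with the kinases and the phosphatase that set its activity and the carrier that feeds it. Its members were 10 genes: the kinases Pdk1, Pdk2, Pdk3 and Pdk4, the phosphatase Pdp1, the enzyme subunit genes Pdha1, Pdhb and Dlat, and the carrier genes Mpc1 and Mpc2. They were chosen by name, through every non-control probe whose gene name or current symbol was one of them, out of 31131 names on the array. That gave 16 probes, 1 for each of 6 genes, 2 for each of 2 genes and 3 for each of 2 genes. All 16 passed the filter on dim probes, and 15 stood well above background on each of the 7 arrays. Probes of 1 gene are numbered from the brightest to the dimmest.

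Agilent mouse arrays, read in a single dye, measured the RNA of 7 mice (4 WT and 3 AR113Q), each mouse on an array of its own. All mice were C57BL/6 by the labels (C57Bl6/J in the reporting summary) and 3 months old, and the sample labels give no treatment. The series' design text adds the letters NCD to the AR113Q group alone, without saying what they stand for, so a condition that differed along with genotype cannot be told apart from it. AR113Q mice are knock-in animals with an expanded CAG tract in the endogenous locus of the disease gene, so that the mutant protein is made wherever that locus is active and not in muscle alone. The labels name the controls WT, whereas the results text of the study describes them as knock-in mice with a CAG tract of normal length. The labels leave the sex out, and the reporting summary of the study states males for its mice. The study put this age before the onset of motor dysfunction and asked which transcripts differ by then.

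Pyruvate from glycolysis enters mitochondria through a carrier made of MPC1 and MPC2. There the pyruvate dehydrogenase complex turns it into acetyl-CoA, in a step that animals cannot reverse. Its first enzyme (E1) is built of an alpha subunit, encoded by Pdha1, and a beta subunit, encoded by Pdhb, while Dlat encodes the second enzyme (E2), which forms the core. The kinases phosphorylate the alpha subunit and switch the complex off, and the phosphatases remove the phosphate and switch it on. In skeletal muscle, Pdk4 is known for its increase in fasting, when muscle spares glucose and burns fat, and Pdp1 for its activation by calcium.

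The oligonucleotides behind the largest differences are given first, because each value below is the signal of 1 such probe of 60 bases. The first 30 bases of the probes for Pdk4, Pdp1 and the third Pdhb probe are shown, 5′ to 3′, with the position of the whole probe on mm9 (all on the minus strand, from the array's annotation).
Pdk4, chr6:5433441-5433500: tatgaacccatgggagactttaaactcttg
Pdp1 probe 1, chr4:11887075-11887134: ctcacccatgatttcctcagtgtaacagta
Pdp1 probe 2, chr4:11885487-11885546: ggtttgaatgctgtctatggttagagaaac
Pdp1 probe 3, chr4:11887655-11887714: attaccctggcagttcttcagttggaaggg
Pdhb probe 3, chr14:9003605-9003664: gtgcagctatggtatgtaatatttatggag
The 3 Pdp1 probes share no base with each other and start 580 to 2168 bases apart, so they are separate readings of 1 transcript. The third Pdhb probe lies 5057 bases from the first. The array's annotation ties it to cDNA clones named Pdhb and not to the reference mRNA, and whether it lies in an exon or an intron was not determined here.

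On the 7 arrays, 47.7% to 55.9% of the 39429 probes were well above background and 0 spots were saturated. The arrays came from 5 slides and 1 scan date. Only 1 slide (slide 2) held both genotypes, with WT replicate 2 and AR113Q replicate 1. Values below are log2 intensities after quantile normalization, in which 1 unit is a doubling. A probe was called when its adjusted p was at most 0.05 and its absolute log2 fold change (AR113Q over WT) at least 1. With so few arrays, their number limits the precision. Nothing in the labels beyond the replicate number says how the mice were related, and p-values measure the spread between these mice.

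At the level of probes, 2 member probes were called higher (background: 12.2% of 20991 probes tested) and 3 were called lower (background: 12.6%). At the level of genes, each read through its brightest probe, Pdk4 was called higher (background: 11.2% of 16577 genes) and Pdp1 was called lower (background: 13.1%). The genotypes did not overlap in 7 of the 16 probes (43.8%), against 49.6% of all probes tested. The median log2 fold change of the 16 probes was -0.27, against 0.01 over all probes. These shares depended on the processing. Under normexp, 2 of 16 probes (12.5%) were called higher and 4 (25%) lower, against 4.64% and 5.24% of all probes. In the authors' values, 1 (6.25%) was called higher and 3 (18.8%) lower, against 3.95% and 4.61%. Since probes of 1 gene are not independent, the results are given gene by gene. RNA of whole muscle was measured, in which fewer cells of a type and less RNA per cell cannot be told apart.

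**Figure D1:**
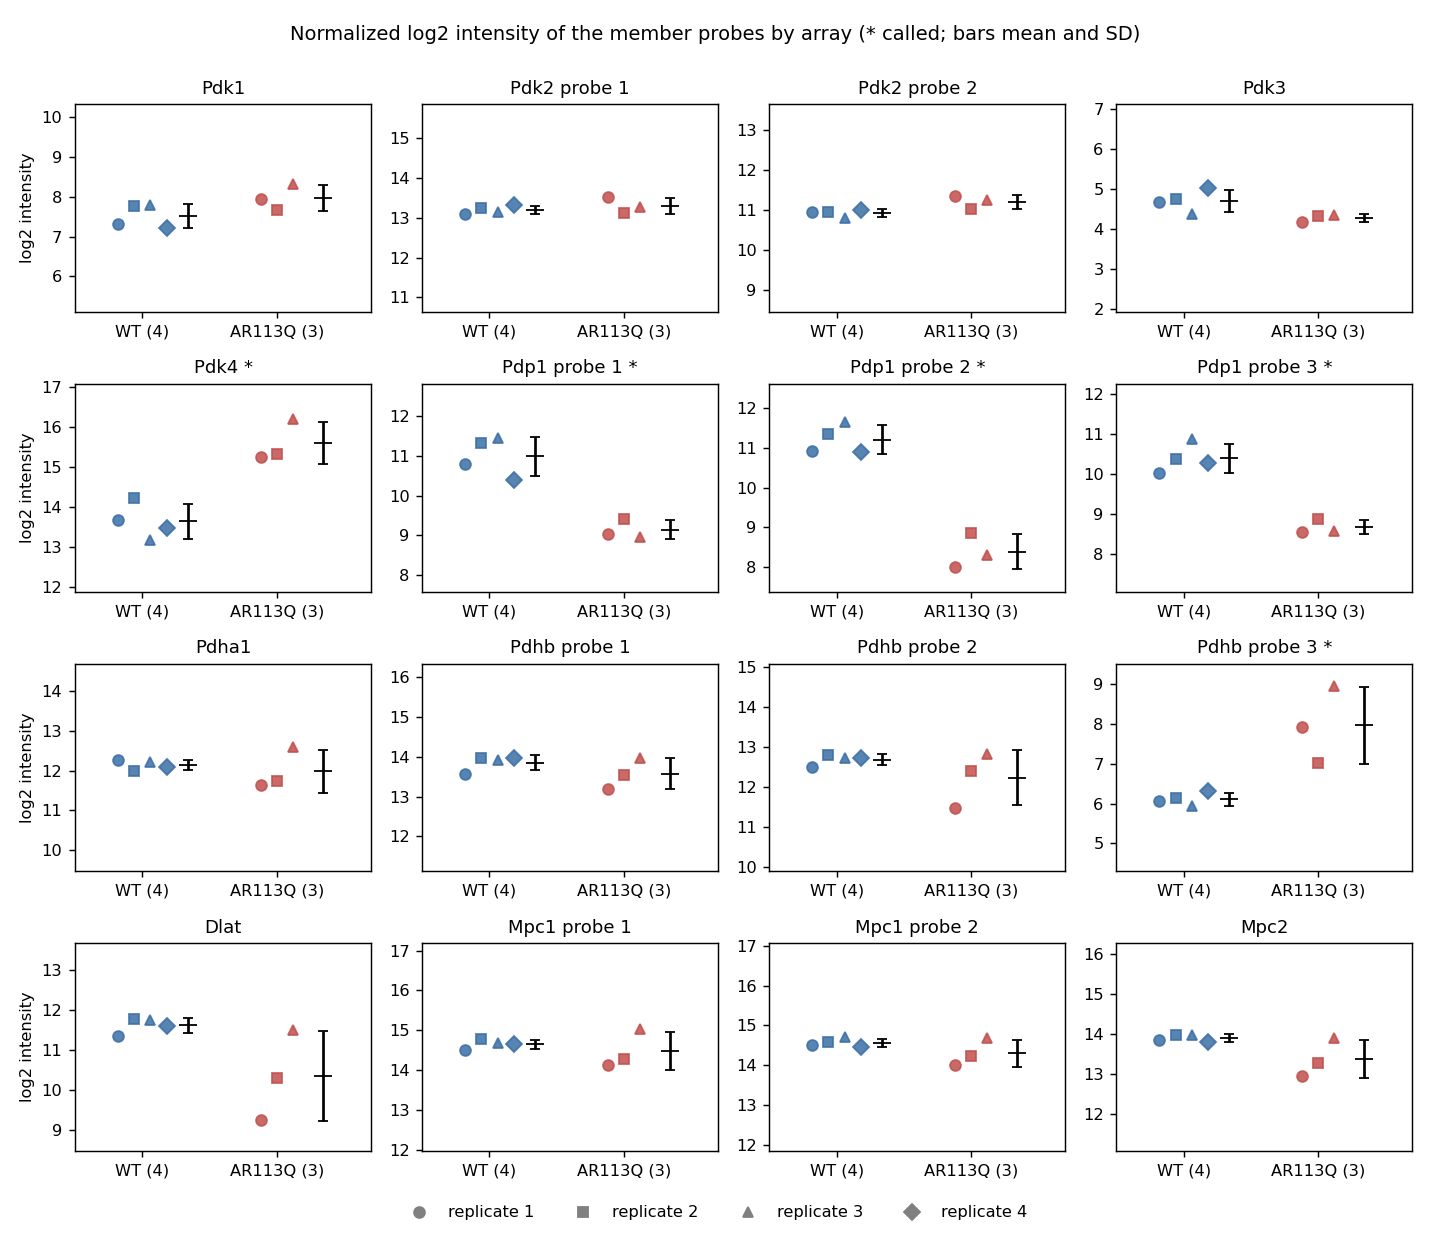
Normalized log2 intensity (y axis, log2 scale, same span in each panel) of the 16 member probes on 4 WT and 3 AR113Q arrays. Points are single mice with a marker shape per replicate number, bars give the mean and SD, and asterisks mark called probes; Pdk4 lies higher and the 3 Pdp1 probes lie lower in AR113Q with no overlap between genotypes.

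Pdk4 was the kinase that differed most. Its probe (A_51_P350453) read 13.67, 14.23, 13.17 and 13.48 in WT replicates 1 to 4 and 15.26, 15.34 and 16.22 in AR113Q replicates 1 to 3. The genotypes did not overlap, and the lowest AR113Q array lay above the highest WT array by more than the SD of either genotype. The mean came to 13.64 ± 0.45 (SD, n = 4) for WT and 15.61 ± 0.53 (SD, n = 3) for AR113Q. The log2 fold change was 1.97 (SE 0.31, adjusted p = 0.00183), a 3.91-fold increase with a 95% interval of 2.37 to 6.45. Leaving out each array in turn gave 1.66 to 2.16, and the call held in all 7 fits. Within slide 2 the log2 difference was 1.03, and with slide as a fixed effect the adjusted p was 0.107, a fit that rests on that 1 pair of arrays for the genotype. With slide as a random block it was 2.02 (adjusted p = 0.00158).

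The other kinases were not called. Pdk1 read 7.52 ± 0.30 (SD, n = 4) for WT and 7.97 ± 0.32 (SD, n = 3) for AR113Q, a log2 fold change of 0.45 (SE 0.23, adjusted p = 0.142), with overlap between genotypes. Pdk2, a broadly expressed kinase of the complex, was read by 2 probes with log2 fold changes of 0.10 (SE 0.16, adjusted p = 0.628) and 0.28 (SE 0.15, adjusted p = 0.169). Their 95% intervals, -0.26 to 0.47 and -0.07 to 0.63, do not reach the threshold of 1. Pdk3 was dim, well above background on 4 WT and 2 AR113Q arrays. It read 4.70 ± 0.27 (SD, n = 4) for WT and 4.28 ± 0.10 (SD, n = 3) for AR113Q, a log2 fold change of -0.42 (SE 0.18, adjusted p = 0.0978). This size depended on the processing: it was -0.04 in the authors' values, -0.08 under normexp, -0.09 with the mean intensity and -0.73 (adjusted p = 0.0417) under scaling to the 75th percentile.

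Whether Pdk4 differed from its relatives was tested on the per-array difference between log2 values, with an exact two-sided permutation test over all 35 assignments of the 7 arrays. These 3 pairs and 3 further pairs below made 6, chosen after their values were seen. The log2 fold change of Pdk4 exceeded that of Pdk1 by 1.52, that of Pdk2 by 1.86 and that of Pdk3 by 2.39 (1.97 to 2.59 in the other processed values). Each exact p was 0.0286, the smallest this design allows, and 0.0286 after adjustment over the 6 pairs. Because Pdk4 was picked as the called kinase, these values describe the gap between the kinases and are not independent evidence of it.

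Pdp1, the phosphatase that opposes the kinases, fell on all 3 of its probes. Probe 2 (A_55_P2269497) read 10.91, 11.34, 11.65 and 10.89 in WT and 8.0, 8.86 and 8.30 in AR113Q. Its log2 fold change was -2.81 (SE 0.27, adjusted p = 0.000244), a 6.99-fold decrease with a 95% interval of 4.55 to 10.74. Every AR113Q array lay below every WT array by more than the SD of either genotype. Probe 1 read 10.78, 11.33, 11.44 and 10.38 in WT and 9.04, 9.41 and 8.97 in AR113Q, a log2 fold change of -1.84 (SE 0.28, adjusted p = 0.00143). Probe 3 read 10.02, 10.38, 10.88 and 10.27 in WT and 8.55, 8.87 and 8.58 in AR113Q, a log2 fold change of -1.72 (SE 0.22, adjusted p = 0.000763). None of the 3 probes overlapped between genotypes, and each kept its call in all 7 fits with an array left out. With slide as a fixed effect the log2 fold changes were -2.29, -3.34 and -1.83 for probes 1, 2 and 3, and the adjusted p were 0.0974, 0.0540 and 0.0768.

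The second phosphatase catalytic subunit moved the other way. Pdp2, a partner gene outside the member list, read 7.15 ± 0.54 (SD, n = 4) for WT and 9.47 ± 0.21 (SD, n = 3) for AR113Q. Its log2 fold change was 2.32 (SE 0.29, adjusted p = 0.000739, gene level). The change of Pdp1, read by its brightest probe, minus that of Pdp2 was -4.16 log2 units (exact two-sided permutation p = 0.0286, adjusted over 6 pairs 0.0286). This pair was chosen after its opposite fold changes were seen, so that its p is no separate evidence of them.

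**Figure D2:**
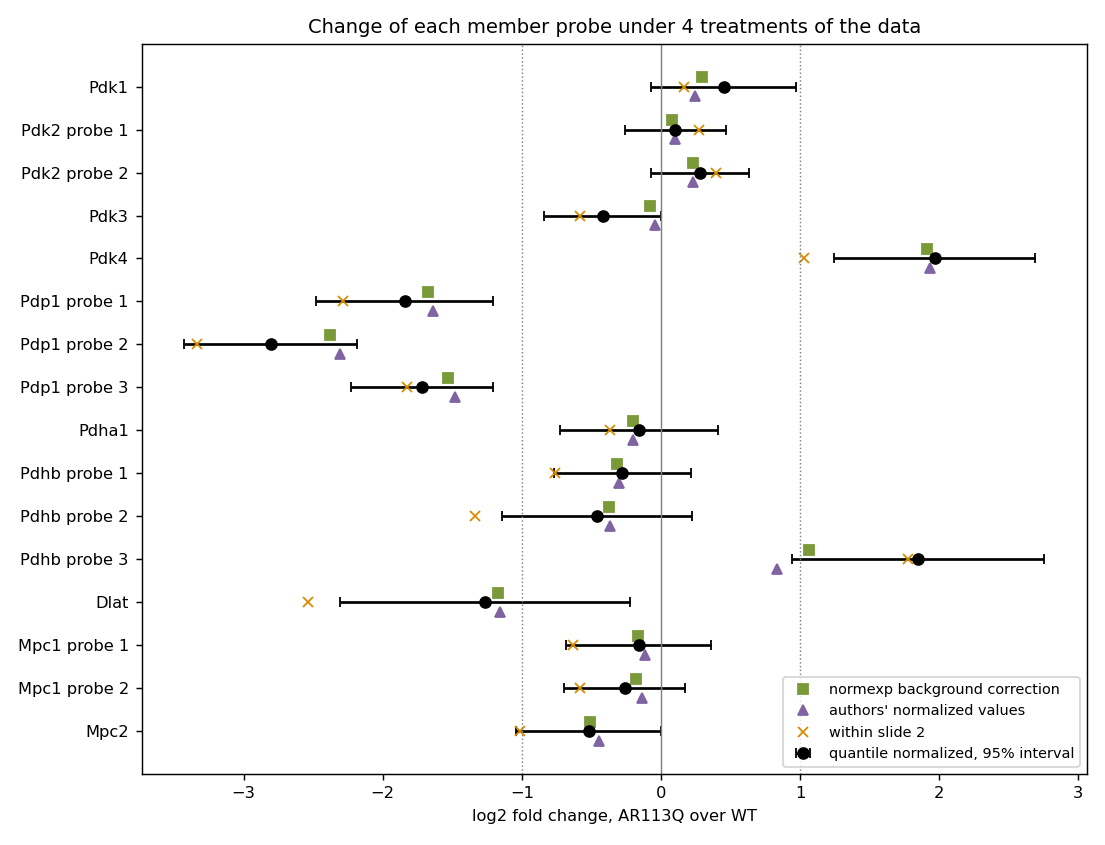
Log2 fold change (x axis, AR113Q over WT) of each of the 16 member probes. Black points and bars are the quantile normalized estimate and its 95% interval, squares the normexp values, triangles the authors' values, crosses the single WT and AR113Q pair on slide 2, and dotted lines the threshold of 1; Pdk4 and Pdp1 keep their direction and size past the line under each, while Dlat runs from -1.16 (authors' values) to -2.54 (slide 2).

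Among the enzyme subunits, the probes on the reference mRNAs of E1 were not called. Pdha1 read 12.15 ± 0.12 (SD, n = 4) for WT and 11.99 ± 0.54 (SD, n = 3) for AR113Q, a log2 fold change of -0.16 (SE 0.25, adjusted p = 0.628). Pdhb probe 1 read 13.85 ± 0.19 and 13.57 ± 0.39, a log2 fold change of -0.28 (SE 0.22, adjusted p = 0.327). Pdhb probe 2 read 12.69 ± 0.13 and 12.23 ± 0.69, a log2 fold change of -0.46 (SE 0.30, adjusted p = 0.241). For each of these probes the genotypes overlapped.

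Pdhb probes 1 and 2 are not independent readings, since they tile the same stretch of chr14 on mm9, 8998548-8998607 and 8998503-8998562. The end of probe 1 and the start of probe 2 are printed to show it, with the 15 bases they share in capitals.
Pdhb probe 1, end: tatattaTCTACATTTGCTGTT
Pdhb probe 2, start: TCTACATTTGCTGTTtaattgt

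Pdhb probe 3 (A_55_P1969775), on the cDNA clones, gave the opposite picture. It read 6.06, 6.14, 5.93 and 6.32 in WT and 7.91, 7.02 and 8.96 in AR113Q, with no overlap. The log2 fold change was 1.85 (SE 0.39, adjusted p = 0.00652). Relative to probe 1, the probe of Pdhb that changed least, it was 2.13 log2 units higher in AR113Q than in WT (exact two-sided permutation p = 0.0286, 1 gene compared). The pair was chosen by the fold changes that the test compares, so the p adds nothing to them. Its size was 1.99 under scaling to the 75th percentile, 1.38 under normexp, 1.45 with the mean intensity and 1.14 in the authors' values. The scanner intensities of this probe were low, from 49.8 to 584 over the 7 arrays, and its size changed with the processing. In the authors' normalized values its log2 fold change was 0.84 (adjusted p = 0.0305), under the threshold of 1, and a fixed slide effect gave 1.78 (adjusted p = 0.0624). Pdhb was called on this 1 probe and not on its mRNA probes.

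Dlat, the core enzyme, lay just outside the call. It read 11.35, 11.79, 11.75 and 11.60 in WT and 9.25, 10.30 and 11.51 in AR113Q. AR113Q replicates 1 and 2 lay below every WT array, and AR113Q replicate 3 lay within the WT range. The log2 fold change was -1.27 (SE 0.45, 95% interval -2.31 to -0.22), with an adjusted p of 0.0519. The value turned on 1 array: without AR113Q replicate 3 it was -1.85 (adjusted p = 0.00340), and without AR113Q replicate 1 it was -0.71 (adjusted p = 0.138). Over all alternatives with a test the adjusted p ran from 0.00340 to 0.138. The change of Dlat minus that of Pdha1 was -1.11 log2 units, and minus that of Pdhb it was -0.99 (exact two-sided permutation p = 0.0286 for each, adjusted over 6 pairs 0.0286). Under normexp, the mean intensity and the authors' values these exact p were 0.0571 to 0.0857. Both pairs were chosen after their fold changes were seen, so their p is no separate evidence of the gap.

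The carrier genes were not called. Mpc2, whose probe is printed 10 times on each array, read 13.84, 13.97, 13.98 and 13.79 in WT and 12.96, 13.27 and 13.90 in AR113Q, a log2 fold change of -0.52 (SE 0.23, adjusted p = 0.0964). The SD among the spots of 1 array was 0.08 to 0.15, while the SD among the array means was 0.10 in WT and 0.48 in AR113Q. Mpc1 probes 1 and 2 had log2 fold changes of -0.16 (SE 0.23, adjusted p = 0.595) and -0.26 (SE 0.19, adjusted p = 0.291). The array's annotation places both on chromosome 12 of mm9 (112096296-112096355 and 112096554-112096613), whereas RefSeq lists Mpc1 on chromosome 17 and a pseudogene, Mpc1-ps, on chromosome 12 (GRCm38.p6). The signal of these probes may be shared with the pseudogene, and the values for Mpc1 are uncertain for that reason.

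The AR113Q arrays differed among themselves on the enzyme and carrier probes. In all 7 uncalled ones (Pdha1, Pdhb probes 1 and 2, Dlat, both Mpc1 probes and Mpc2), AR113Q replicate 3 gave the highest and AR113Q replicate 1 the lowest of the AR113Q values. That arrangement also held for Pdk3 and Pdk4, 9 of the 16 member probes in all, and for 19.2% of all probes tested. Relative to the WT mean, the 7 probes lay between -2.37 and -0.51 log2 units on AR113Q replicate 1, between -1.32 and -0.30 on AR113Q replicate 2, and between -0.11 and 0.46 on AR113Q replicate 3. Without AR113Q replicate 3, Mpc2 had a log2 fold change of -0.78 (adjusted p = 0.00857) and Pdha1 of -0.47 (adjusted p = 0.0456), both past the threshold on p and under that on size. For Pdk4 and the Pdp1 probes, all 3 AR113Q arrays lay on 1 side of every WT array.

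**Figure D3:**
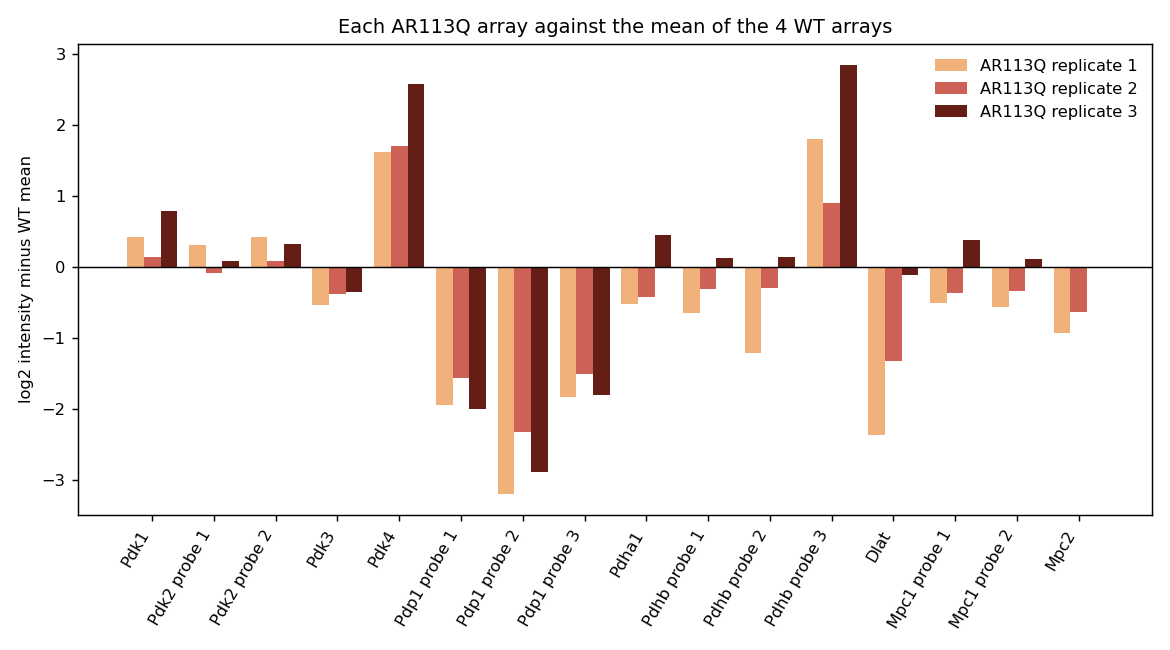
Log2 intensity of each AR113Q array minus the mean of the 4 WT arrays (y axis), for the 16 member probes. Bars are single AR113Q mice; all bars of Pdk4 are above 0 and all bars of Pdp1 below -1.5, whereas for Dlat the bars run from -2.37 to -0.11 and for Pdha1 from -0.52 to 0.46.

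Marker genes also differed among the arrays. The summed linear intensity of 8 slow fiber genes was 2009 and 1216 on AR113Q replicates 1 and 2 and 82556 on AR113Q replicate 3, and it ran from 1260 to 32780 among WT. That of 8 skeletal muscle genes was 402416, 462308 and 689202 on the AR113Q arrays and 602223 to 711841 in WT, lowest on AR113Q replicate 1 and highest of AR113Q on replicate 3, as the 7 probes were. The slow fiber sum was highest of AR113Q on the same replicate but lowest on replicate 2. Of these lists, Atp2a2 (slow fiber) was called higher and Mylpf (skeletal muscle) lower. In the lists of other cell types, calls were all in the direction of lower (background: 13.1% of all genes). Adipocyte genes (5 of 7 called lower) summed to 61112 to 103333 in WT and 38591 to 46643 in AR113Q, and fibroblast genes (4 of 6 lower) to 103582 to 126358 and 75044 to 105725. Macrophage genes (3 of 6 lower) summed to 7496 to 13737 in WT and 5837 to 7632 in AR113Q, Schwann cell genes (2 of 5 lower) to 1998 to 4550 and 1273 to 1802, and endothelial genes (1 of 5 lower) to 5025 to 6411 and 3086 to 4838. The 4 erythrocyte genes, not called, summed to 44409 to 214208 in WT and 45185 to 57714 in AR113Q. All genes of these marker lists passed the filter. The part of these cell types in the results on the complex was not tested.

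The closest partners of the complex, a list of 9 genes of which 6 were tested, had 1 called gene, Pdp2, which was higher (background: 11.2%). Their median log2 fold change was -0.02, against -0.01 over all genes tested. Pdhx, the protein that tethers the third enzyme to the core, read 10.21 ± 0.20 (SD, n = 4) for WT and 9.31 ± 0.55 (SD, n = 3) for AR113Q, a log2 fold change of -0.90 (SE 0.26, adjusted p = 0.0237), past the threshold on p and under that on size. Pdpr, the regulatory subunit of the phosphatase, had 0.86 (SE 0.20, adjusted p = 0.00986), and was well above background on 2 of 4 WT arrays. Dld, the third enzyme itself, had -0.17 (SE 0.24, adjusted p = 0.592). The genes of lipoic acid synthesis and transfer, on which E2 depends, had 0.12 (Lias, adjusted p = 0.587) and -0.60 (Lipt1, adjusted p = 0.0548). Pdha2 did not pass the filter, and Mpc1l and Lipt2 were not found by name.

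The sister complexes use the same chemistry on other acids. Of 7 tested genes of other 2-oxoacid dehydrogenases and their kinase and phosphatase, 2 were called, both higher (background: 11.2%), with a list median of 0.38. Bckdha, the E1 alpha subunit of the branched-chain complex, read 13.24 ± 0.13 (SD, n = 4) for WT and 14.46 ± 0.26 (SD, n = 3) for AR113Q, a log2 fold change of 1.22 (SE 0.17, adjusted p = 0.00113). Dhtkd1, an E1 of lysine breakdown, had 2.57 (SE 0.46, adjusted p = 0.00323), but was well above background on only 1 of 4 WT arrays. It passed the filter through AR113Q, where it was high, so its size and its call carry little weight.

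On the other routes of pyruvate and lactate, 2 of 13 tested genes were called, both lower (background: 13.1%), with a list median of -0.39. Slc16a3, which exports lactate from fast fibers as MCT4, read 15.09 ± 0.20 (SD, n = 4) for WT and 12.89 ± 1.67 (SD, n = 3) for AR113Q, a log2 fold change of -2.20 (SE 0.65, adjusted p = 0.0261). Its size depended on the array: AR113Q replicates 1 to 3 read 11.16, 13.02 and 14.48, and the lowest WT array 14.94. The order of the replicates was that of the uncalled enzyme and carrier probes. Gpt2, a transaminase between pyruvate and alanine, had -1.04 (SE 0.21, adjusted p = 0.00569). Ldha, the muscle lactate dehydrogenase, was not called on its brightest probe (-0.39, adjusted p = 0.115) but was on its other probes (-2.06 and -1.95, adjusted p = 0.000294 and 0.000218 at the probe level), so its probes disagree.

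Downstream of the complex, 2 of 20 tested genes of the citric acid cycle and acetyl-CoA were called, 1 in each direction (background: 11.2% higher and 13.1% lower), with a list median of -0.11. Acss1, which makes acetyl-CoA from acetate in mitochondria, rose by 2.09 (SE 0.31, adjusted p = 0.00133), from 10.46 ± 0.50 (SD, n = 4) in WT to 12.55 ± 0.41 (SD, n = 3) in AR113Q. Slc25a1, the mitochondrial citrate carrier, had -1.40 (SE 0.26, adjusted p = 0.00338). The 18 others were not called, among them citrate synthase (Cs, 0.03, SE 0.17, adjusted p = 0.912).

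Of 12 tested genes for factors known to act on Pdk genes, 3 were called, all higher (background: 11.2%), with a list median of 0.33. Foxo1, a forkhead factor known to act on Pdk4, read 10.56 ± 0.80 (SD, n = 4) for WT and 12.35 ± 0.57 (SD, n = 3) for AR113Q, a log2 fold change of 1.79 (SE 0.45, adjusted p = 0.0131). A second Foxo1 probe had 1.14 (adjusted p = 0.0668 at the probe level). Foxo3 was not well above background on any WT array, so only a bound can be given: it was at least 1.60-fold higher in AR113Q. The adjusted p of its call (0.00306, limma) belongs to the measured difference, and the bound was not tested. The bound sets the AR113Q mean against the lowest signal well above background on each WT array. Foxo3 was tested only because it passed the filter through AR113Q, where it was high, so its call is no support for the list. Ppard, the nuclear receptor PPAR delta, had 1.10 (SE 0.19, adjusted p = 0.00286). Ppara and Foxo4 were not called on their brightest probes (1.30 and 0.52, adjusted p = 0.0711 and 0.319) but each was on another (1.26 and 1.71, adjusted p = 0.0448 and 0.00788 at the probe level). Lpin1 was called on neither of its probes (0.18 and -1.11, adjusted p = 0.600 and 0.0577 at the probe level).

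Of 10 genes known to rise with Pdk4 on fasting, 3 were called, all higher (background: 11.2%), with a list median of 0.87 against -0.01 over all genes tested. Trim63, a muscle ubiquitin ligase, read 14.09 ± 0.50 (SD, n = 4) for WT and 16.02 ± 0.15 (SD, n = 3) for AR113Q, a log2 fold change of 1.93 (SE 0.27, adjusted p = 0.00110). Fbxo32, another such ligase, had 1.74 (SE 0.50, adjusted p = 0.0230), and Ucp3, a mitochondrial carrier of muscle, had 1.32 (SE 0.38, adjusted p = 0.0231), with a second probe at 0.87. Cpt1a, the fatty acid importer of mitochondria, was not called on its brightest probe (0.86, adjusted p = 0.0229) but was on the other (2.29, adjusted p = 0.000545 at the probe level). Cpt1b, of the same list, was called on neither probe (0.40 and 0.10, adjusted p = 0.183 and 0.746 at the probe level). Lpl was lower and likewise called on neither (-0.30 and -0.18, adjusted p = 0.672 and 0.80 at the probe level). Over the 6 related lists, 10 of 68 tested genes (14.7%) were called higher and 3 (4.41%) lower, against 11.2% and 13.1% of all genes tested. The 10 include Dhtkd1 and Foxo3, which passed the filter through AR113Q, where they were high. Their calls carry little weight, so the share called higher is no excess to rely on.

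**Figure D4:**
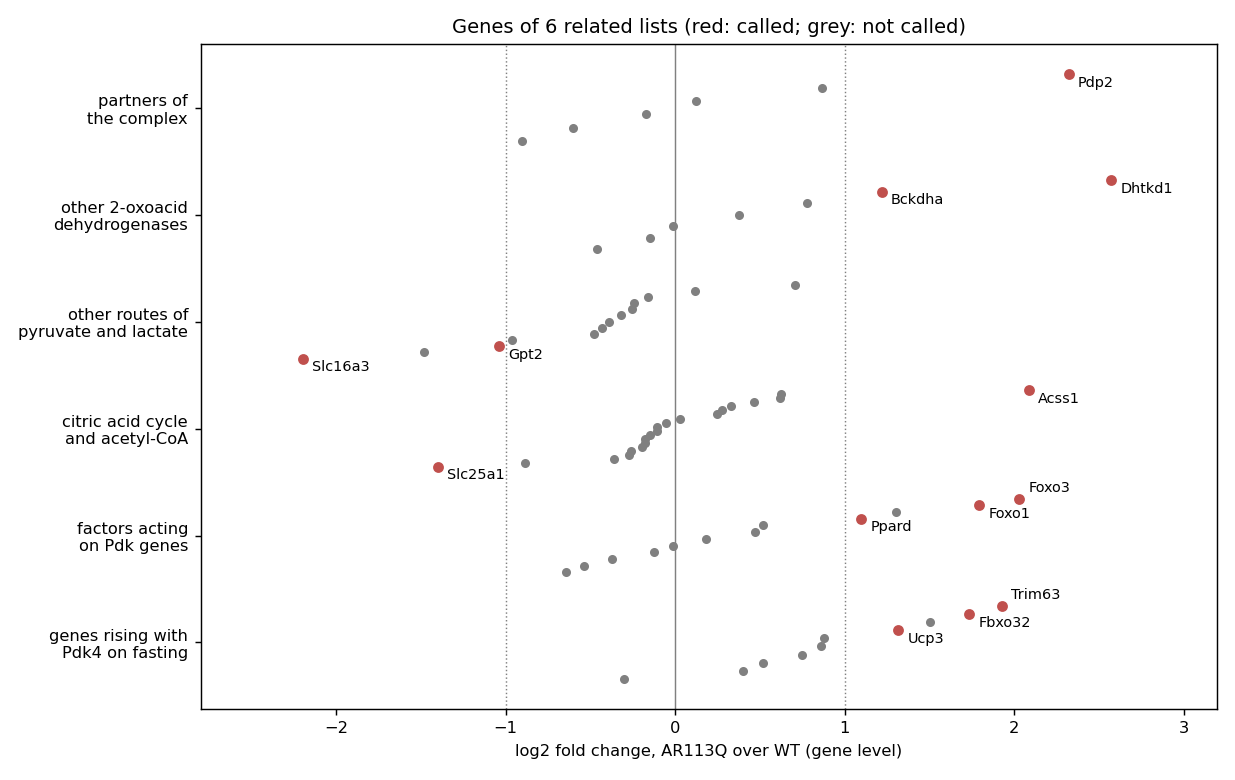
Log2 fold change (x axis, AR113Q over WT, gene level) of the tested genes in 6 lists related to the complex. Each point is a gene, red where called and grey where not, and dotted lines mark the threshold of 1; Pdp2 lies at 2.32, Acss1 at 2.09 and Slc16a3 at -2.20, while Dhtkd1 and Foxo3 were not well above background on most or all WT arrays and their positions have no exact size.

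The genes whose log2 values resembled those of Pdk4 most, among genes with a value on all 7 arrays, were Fam168b (Pearson r = 0.993), Asap1 (0.991), Gm6548 (0.990), Gm10653 (0.989) and Gm10532 (0.988). The 7 points share 1 difference of genotype, and these values are a description without a test. Their own log2 fold changes differed widely, from 0.20 for Gm10653 (adjusted p = 0.238) to 3.21 for Gm10532 (adjusted p = 0.00152).

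The promoters of the members were searched for short motifs, as a description without a test. RefSeq windows (GRCm38.p6) were matched for 9 of the 10 genes, in 12 windows, and Pdp1 had no entry. In the 250 bases before each start, on both strands, 4 motifs were sought: TCAAGGTCA of the estrogen-related receptors, TGTTTAC of forkhead factors, AGAACA of steroid receptors, and GCGCATGCG of NRF1. None of these contains another. AGAACA was found in 1 of the 12 windows, and in 16.1% of all 32851 windows. The other motifs matched no member window, and were present in 0.387%, 3.17% and 1.45% of all windows. The window with AGAACA belonged to the second of 2 starts listed for Pdk1, which lies inside the gene, downstream of its first start. There it occurred on the minus strand (printed as TGTTCT, in capitals), 153 and 138 bases before that second start. Below it the window of Pdk4, the called kinase, is printed whole, in lower case since it held none of these letters.
Pdk1, chr2:71874739-71874783, plus strand: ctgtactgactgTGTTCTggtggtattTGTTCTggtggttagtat
Pdk4, chr6:5496279-5496528, minus strand: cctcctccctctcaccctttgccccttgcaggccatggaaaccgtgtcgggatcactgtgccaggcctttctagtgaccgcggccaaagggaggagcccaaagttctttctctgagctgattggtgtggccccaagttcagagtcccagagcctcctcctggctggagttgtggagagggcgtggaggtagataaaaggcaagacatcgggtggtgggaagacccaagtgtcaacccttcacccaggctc
The match in Pdk1 is a description, and no match says only that these letters are not in these windows.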

How the data were processed

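Total RNA of quadriceps was labelled with Cy3 and hybridized to Agilent mouse arrays, and scans were processed with Feature Extraction 10.7.3.1 (per the submitters' processing notes). The deposited scanner files give each spot an intensity from which background had been subtracted, with no normalization between arrays. The authors also deposited log2 values for 18592 probes, quantile normalized according to their methods, used here as an alternative; their background step is not given in the sources used here. Background subtraction widens the log2 scatter of dim probes, Pdk3 and Pdhb probe 3 among the members.

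Groups were taken from the labels. Outlier and control spots were left out, log2 of the background-subtracted intensity was quantile normalized, and spots of a probe were averaged. Probes well above background on at least 3 arrays were kept (20991 of 39429). Names came from RefSeq (28330 probes matched) or the scanner files. AR113Q was set against WT in limma 3.58.1 (lmFit and eBayes; R 4.3.3), adjusted by Benjamini-Hochberg over all probes or, for genes read through their brightest kept probe, all genes. The false discovery rate of 0.05 follows the methods and the log2 fold change of 1 the results text. The procedure was tested on simulated data. Single differences were tested by exact permutation.

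The genes named are all members and partners, the 2 most changed called genes of each list in each direction, the 5 most like Pdk4, and any gene that a count of 5 or fewer singles out. Ldha, Cpt1a, Cpt1b, Lpl, Ppara, Foxo4, Lpin1 and Cs, and second probes, were named after their values were seen. Of the genes on the lists, 1 is not reported here. The members and lists were chosen with earlier results of these data known. The alternatives were the 75th percentile scaling, normexp (offset 50), the mean intensity without background subtraction, the authors' values, other filters, outlier spots kept, an intensity trend, array weights, slide and replicate blocks, the mean over probes, no fold threshold and each array left out. Normexp, the mean intensity, the 75th percentile and the authors' values for the exact tests were added after the data were seen.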

Additional observations from a re-analysis of the deposited data

Results flagged for a closer look

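In WT, 22 member probes and partner genes were examined for an array apart from the other 3, and 3 were marked, where chance marks about 1 in 20. Pdhb probe 1 read 13.56 on WT replicate 1, below the nearest WT array at 13.91. Pdpr read 4.63 on WT replicate 1, above the nearest at 4.06. Lipt1 read 7.31 on WT replicate 3, above the nearest at 6.82. None of these was called, and groups of 3 arrays were not examined in this way.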

How the results depend on the processing

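Pdk4 and the 3 Pdp1 probes kept their direction under all alternatives and their call under all but slide as a fixed effect, which called no probe of the array. That fit left member probes called higher at 0 (2 in the main analysis), member probes lower at 0 (3), member genes higher at 0 (1) and member genes lower at 0 (1), with 2 member probes higher and 7 lower at an unadjusted limma p under 0.05, as were 37.8% of all probes. With the authors' values, 1 member probe was called higher, since Pdhb probe 3 fell under the fold threshold. Member genes called lower were 2, with Dlat added, under normexp, the mean intensity, the filter on all arrays, the intensity trend and array weights, and 1 to 2 with an array left out. Genes of the related lists called lower (3) were 1 under normexp, 1 in the authors' values, and 1 (without WT replicate 4) to 6 (without AR113Q replicate 3) with an array left out. The cause of these shifts was not tested. Leaving out arrays turned 3 small changes around: it gave -0.0026 to 0.199 for Pdk2 probe 1, -0.469 to 0.019 for Pdha1 and -0.434 to 0.012 for Mpc1 probe 1, the turned values without AR113Q replicate 1. With the replicate block, member probes called were 2 higher and 4 lower, Dlat having an adjusted p of 0.0480 with a log2 fold change of -1.27. Samples of the same number correlated at 0.04, -0.02 and 0.16, so that the numbers were not taken as pairs. Over all probes, the calls (2555 higher, 2653 lower) were 975 and 1100 under normexp, 1067 and 1197 with the mean intensity, and 735 and 857 of 18592 in the authors' values. Pdk3 had no value under the filter on all arrays. The difference between Pdhb probes ran from 1.14 to 2.13 over the processed values. The exact tests were not run with an array left out, where their smallest p exceeds 0.05. Dim probes, Pdk3 foremost, limit what signal over background can show.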
